A study of Mus musculus with 12 samples.

Results

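The 8 genes that make, package, take up or degrade GABA, or set the chloride gradient on which GABA receptors depend, were examined in somatosensory cortex of P7 mice. They are Gad1, Gad2, Slc32a1, Slc6a11, Abat, Slc12a2, Slc12a5 and Wnk1, chosen by gene symbol out of 24452 symbols in the deposited tables. All 8 were found, as 14 RefSeq transcripts. The choice was made with earlier results of these data known. Counts and medians of the 8 genes set beside those of all genes are therefore descriptions. The estimated counts of all transcripts of a symbol were summed. RNA-Seq had been done on 12 libraries from male mice, 3 each from WT mice given saline, WT mice given ethanol (labelled EtOH), p53 KO mice given saline and p53 KO mice given ethanol. The KO mice carried 2 copies of the targeted Trp53tm1Tyj allele on a C57BL/6 background, lack p53 in every cell and came, with their WT controls, from crosses of heterozygous parents. Ethanol or saline was injected intraperitoneally 2 times on P7, and brains were frozen 8 h after the second injection. All mice, controls included, were injected, and each library is named here by its group and the library number in its label.

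GABA is the main inhibitory transmitter of the mature brain. It is made from glutamate by the decarboxylases GAD67 (Gad1) and GAD65 (Gad2), loaded into synaptic vesicles by the transporter VGAT (Slc32a1), removed from the extracellular space by plasma membrane transporters that include GAT3 (Slc6a11), which is found mostly in astrocytes, and broken down in mitochondria by GABA transaminase (Abat). GABA-A receptors are chloride channels, so the effect of GABA follows the chloride gradient. The cotransporter NKCC1 (Slc12a2) carries chloride into cells and KCC2 (Slc12a5) carries it out of neurons, KCC2 increases over NKCC1 in the first postnatal weeks in rodent cortex as GABA turns from depolarizing to hyperpolarizing, and the kinase WNK1 (Wnk1) acts upstream of kinases that phosphorylate both cotransporters. In the cortex, Gad1, Gad2 and Slc32a1 are expressed in GABAergic interneurons and Slc12a5 in neurons in general.

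In mm10, the assembly of the deposited tables, 4 of the genes lie on chromosome 2: Gad1 at 70562129 to 70602015, Gad2 at 22622327 to 22693878, Slc32a1 at 158610758 to 158615748 and Slc12a5 at 164967988 to 164999732. Slc6a11 (114131241 to 114249887) and Wnk1 (119923969 to 120038656) are on chromosome 6, and Abat (8513429 to 8621568) is on chromosome 16. Promoter windows of 300 bases, 250 before and 50 after a start site, were taken from RefSeq (GRCm38.p6) and matched 6 of the 8 genes in 7 windows. They are shown for the pair of synthesis genes, whose levels after ethanol are described first below, and for the Slc12a5 start that the deposited transcript uses. Capitals mark the letters of a motif that was searched for.
Gad1, chr2:70561879-70562178, plus strand: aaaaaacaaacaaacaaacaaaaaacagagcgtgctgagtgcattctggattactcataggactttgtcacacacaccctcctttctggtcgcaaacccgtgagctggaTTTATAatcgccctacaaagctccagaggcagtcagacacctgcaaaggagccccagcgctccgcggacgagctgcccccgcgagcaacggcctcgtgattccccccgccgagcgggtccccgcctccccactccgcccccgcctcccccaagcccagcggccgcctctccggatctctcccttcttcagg
Gad2, chr2:22622077-22622376, plus strand: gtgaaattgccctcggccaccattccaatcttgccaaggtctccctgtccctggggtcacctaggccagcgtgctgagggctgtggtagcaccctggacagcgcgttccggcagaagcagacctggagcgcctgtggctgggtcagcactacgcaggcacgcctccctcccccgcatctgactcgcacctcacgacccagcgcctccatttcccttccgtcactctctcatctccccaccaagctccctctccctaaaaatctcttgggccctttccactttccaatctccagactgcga
Slc12a5, chr2:164967738-164968037, plus strand: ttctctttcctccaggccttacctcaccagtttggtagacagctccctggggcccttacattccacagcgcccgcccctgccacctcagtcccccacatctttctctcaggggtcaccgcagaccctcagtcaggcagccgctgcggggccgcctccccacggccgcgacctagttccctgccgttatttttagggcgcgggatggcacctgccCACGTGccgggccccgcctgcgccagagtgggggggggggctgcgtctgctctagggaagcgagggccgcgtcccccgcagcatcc

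The motifs searched, on both strands, were the TATA box TATAAA, the E-box CACGTG, the cyclic AMP response element TGACGTCA and the p53 half-site. None of the 7 windows held a p53 half-site, which 8.36% of all 32851 windows held, nor TGACGTCA, which 1.79% held. Gad1 held TATAAA on the minus strand, printed as TTTATA, with its first base at -141 from the start site, as did 13.6% of all windows on either strand. Slc12a5 held CACGTG at -36, which 7.15% of all windows held. The windows of the 6 genes were rich in G and C (61.3% in Gad2, 68.3% at the printed Slc12a5 start and at most 72.3%, in Slc6a11, with a median of 52.7% over all windows) and had 14 to 32 CG dinucleotides, where the median window had 7. A match of letters is a description of the window and shows no binding.

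The libraries differed widely in depth and in the tissue they represent. Total estimated counts ran from 719735 to 17066392, a 23.7-fold range, and were lowest in 2 libraries whose names open with the letter L where the others open with P, WT saline 3 (1953154) and KO ethanol 12 (719735). Trp53, the disrupted gene, had 14.0 to 453.0 summed counts with no deficit in KO libraries, and the share of its count given to transcript NM_001127233 was 7.01% to 23.1% in the 6 WT libraries and 48.3% to 70.6% in 5 of the 6 KO libraries. In the library labelled KO ethanol 12 it was 7.01%, from 14 counts. The same share was given in WT saline 1, WT saline 3 and WT ethanol 5, from 20, 51 and 78 counts. The share thus did not set KO ethanol 12 apart from WT. How the quantification arrives at an equal share from such different counts was not tested, so it does not tell the genotype of that library. WT ethanol 4 stood apart by its markers, as the plot of summed marker levels shows. Thalamic neuron markers summed to 2040 normalized CPM (counts scaled to library size with TMM factors) there and to 91.9 to 291 elsewhere, and it held the highest value for 7 of 7 thalamic and 5 of 6 choroid plexus markers. Gbx2, a thalamic transcription factor, was at 71.7 in it and at 0 in 5 libraries. WT ethanol 14 held the highest value for 10 of 11 striatal projection neuron markers, among them Ppp1r1b at 461, and their sum was 1270 there, 603 in WT ethanol 5, 545 in KO ethanol 18 and 126 to 291 in the other libraries. Striatal projection neurons are GABAergic and express Gad1 and Gad2, so these sums are given beside the results. Some results are also reported without WT ethanol 4, and fewer without WT ethanol 4 and 14. Fits without WT ethanol 5 or without KO ethanol 18 enter only the ranges over single libraries left out. Fits without both WT ethanol 4 and 14 leave 1 WT ethanol library, which is assumed to vary like the other groups, so only their fold changes are given.

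**Figure D1:**
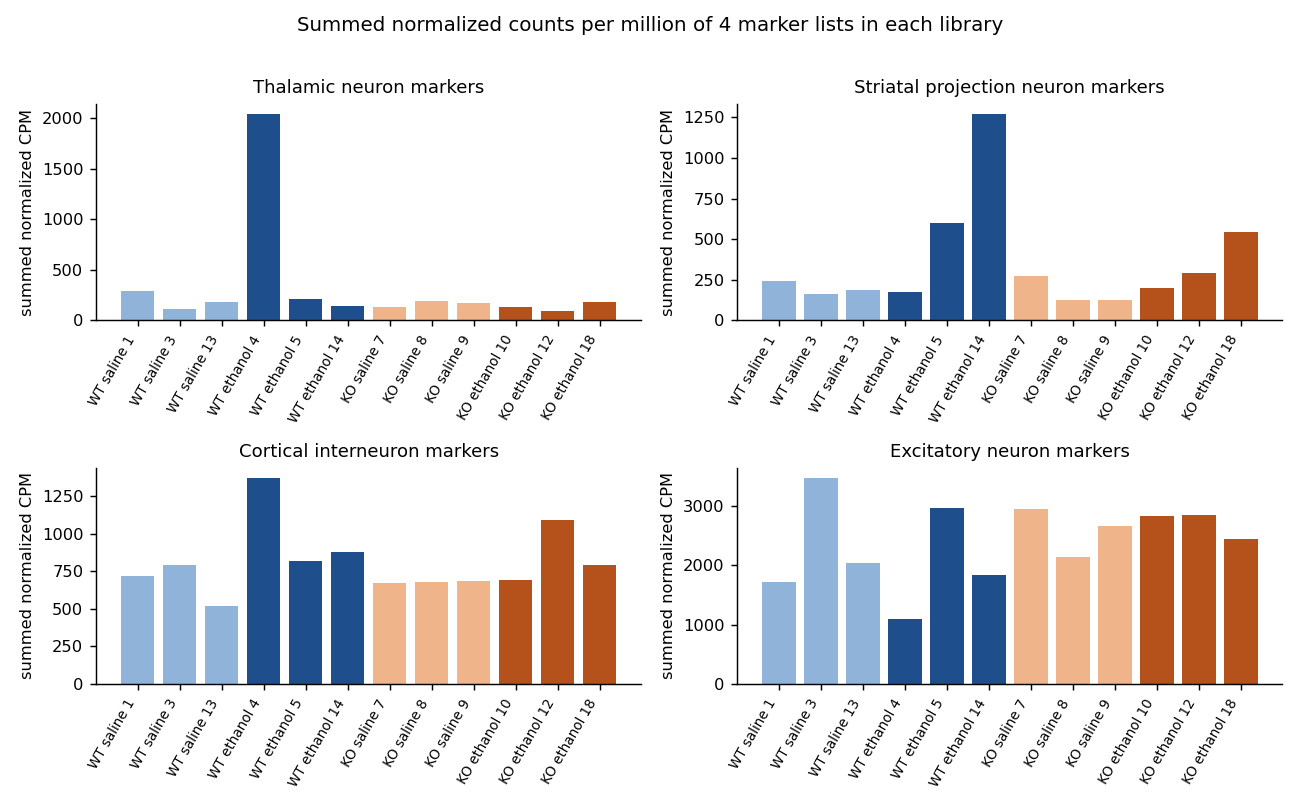
Summed normalized CPM of 4 marker lists (vertical axes) in each of the 12 libraries (horizontal axes, 1 bar per library, colored by group, no error bars). Thalamic markers reach 2040 in WT ethanol 4 and at most 291 elsewhere, and striatal markers reach 1270 in WT ethanol 14.

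Levels of the 8 genes were compared per length, as the deposited RPKM, with the median of 12 libraries. Slc6a11 (37.2), Gad1 (31.5), Abat (31.1) and Slc12a5 (26.5) had the higher levels. Slc32a1 (14.4), Gad2 (9.08), Wnk1 (9.07) and Slc12a2 (5.72) had the lower ones. The RPKM of Gad1 ranged from 16.3 to 57.9 and that of Gad2 from 3.91 to 17.6, so the ranges of these neighbours in function met only at their edges, while the ranges of Slc6a11, Gad1, Abat and Slc12a5 overlapped. Across libraries Slc6a11 varied most in RPKM, 12.8-fold from 12.9 to 165.0, and Wnk1 least, 2.41-fold from 5.26 to 12.7. In normalized CPM Wnk1 was not the least variable, at 43.5 to 170 where Gad1 was at 63.5 to 172. All 8 genes were detected in all libraries, with the fewest counts for each in KO ethanol 12, from 14 for Slc12a2 to 105 for Abat.

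Ethanol was compared with saline in WT mice to ask how the 8 genes respond to developmental ethanol exposure when p53 is present. All 8 mean levels were higher after ethanol, and in 4 genes (Gad1, Gad2, Abat and Slc12a2) all 3 ethanol libraries were above all 3 saline libraries, as were 11.3% of all 14739 genes tested. Gad2 had the largest difference, 3.11-fold, followed by Abat (2.34-fold), Wnk1 (2.01-fold) and Gad1 (1.89-fold). These 4 had an unadjusted p under 0.05 in edgeR's quasi-likelihood test, in a comparison where 9.99% of all genes were higher at that level. No gene of the 8 had an adjusted p under 0.05, a level reached by 0.0746% of all genes, and the same 4 had an adjusted p under 0.30, the study's own level, as did 22.5% of all genes. The median log2 fold change of the 8 genes was 0.89 and that of all genes 0.06.

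Gad1, which makes most of the GABA of the cell body and is expressed in almost every GABAergic neuron, was at 95.0, 74.0 and 74.7 normalized CPM in WT saline 1, 3 and 13 and at 172, 149 and 141 in WT ethanol 4, 5 and 14. The lowest ethanol library was thus well above the highest saline library. The group means were 81.3 ± 11.9 after saline and 154 ± 16.4 after ethanol (SD, n = 3). This gave a log2 fold change of 0.92 (SE 0.31, unadjusted p = 0.01, edgeR adjusted p = 0.208). It was 0.82 without WT ethanol 4, 0.85 without WT ethanol 4 and 14 and 0.77 without the 2 libraries named with L.

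Gad2, whose enzyme supplies GABA at nerve terminals, was at 24.3, 60.2 and 21.2 normalized CPM in WT saline 1, 3 and 13 and at 104, 115 and 104 in WT ethanol 4, 5 and 14. WT saline 3, a library named with L, was more than 2 times as high as the other saline libraries, and the ethanol libraries were close to each other (108 ± 6.22, SD, n = 3). The saline mean was 35.2 ± 21.7 (SD, n = 3). The log2 fold change was 1.64 (SE 0.40, unadjusted p = 0.00111, edgeR adjusted p = 0.131). The value was 1.66 without WT ethanol 4 and 1.72 without WT ethanol 4 and 14. It was 2.17 without the libraries named with L, when Gad2 passed the test with an adjusted p of 0.00656. In that fit without the libraries named with L, 3220 genes had an adjusted p under 0.05, against 11 with all 12 libraries. WT ethanol 5, which had thalamic markers within the range of the other groups and a striatal sum of 603, had the highest Gad2 of all 12 libraries.

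Slc32a1, the vesicular carrier that loads GABA and glycine into vesicles, overlapped between the groups. It was at 8.45, 30.9 and 48.8 normalized CPM in WT saline 1, 3 and 13 and at 67.8, 47.4 and 46.0 in WT ethanol 4, 5 and 14. The first saline library was low and the third was above 2 of the ethanol libraries. Its log2 fold change was 0.87 (SE 0.52, unadjusted p = 0.119, edgeR adjusted p = 0.374).

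Slc6a11, which encodes the transporter GAT3, ran from 61.9 to 268 normalized CPM in WT saline libraries and from 122 to 510 in WT ethanol libraries. The highest value was that of WT ethanol 4, and the other ethanol libraries lay within the saline range. The log2 fold change of 0.69 (SE 0.54, unadjusted p = 0.226, edgeR adjusted p = 0.5) was -0.19 without WT ethanol 4.

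Abat, whose product begins the breakdown of GABA, was at 109, 73.0 and 164 normalized CPM in WT saline 1, 3 and 13 and at 317, 237 and 259 in WT ethanol 4, 5 and 14. The groups did not overlap. Means were 116 ± 45.9 and 271 ± 41.5 (SD, n = 3). Ethanol over saline was 1.23 on the log2 scale (SE 0.35, unadjusted p = 0.00339, edgeR adjusted p = 0.180). Without WT ethanol 4 it was 1.08 and without WT ethanol 4 and 14 it was 1.0. Without the libraries named with L it was 0.91 with an adjusted p of 0.0483, in a fit where 3220 genes were under 0.05.

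Among the chloride genes, Slc12a2 (NKCC1; chromosome 18, 57878678 to 57946822, mm10) was at 46.5, 27.3 and 33.6 normalized CPM in WT saline 1, 3 and 13 and at 76.3, 50.3 and 47.1 in WT ethanol 4, 5 and 14. The groups were separated by less than 1 CPM, between WT saline 1 and WT ethanol 14. The log2 fold change was 0.69 (SE 0.38, unadjusted p = 0.0871, edgeR adjusted p = 0.329), and 0.42 without WT ethanol 4.

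Slc12a5 (KCC2) ran from 73.5 to 188 in WT saline and from 146 to 281 normalized CPM in WT ethanol libraries, and the groups overlapped. Its log2 fold change was 0.59 (SE 0.54, unadjusted p = 0.287, edgeR adjusted p = 0.560), and 0.26 without WT ethanol 4.

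Wnk1 was at 62.8, 84.3 and 48.7 normalized CPM in WT saline 1, 3 and 13 and at 170, 82.3 and 140 in WT ethanol 4, 5 and 14. WT ethanol 5 was below WT saline 3, so the groups overlapped. The means were 65.3 ± 17.9 and 131 ± 44.8 (SD, n = 3). The log2 fold change was 1.01 (SE 0.42, unadjusted p = 0.0286, edgeR adjusted p = 0.233). It was 0.77 without WT ethanol 4 (unadjusted p = 0.112) and 0.32 without WT ethanol 4 and 14. Without the libraries named with L it was 1.15 and Wnk1 passed the test with an adjusted p of 0.0327, as 3220 genes did at 0.05. The 2 libraries with the highest Wnk1 in the group are thus those with the high thalamic and striatal markers.

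**Figure D2:**
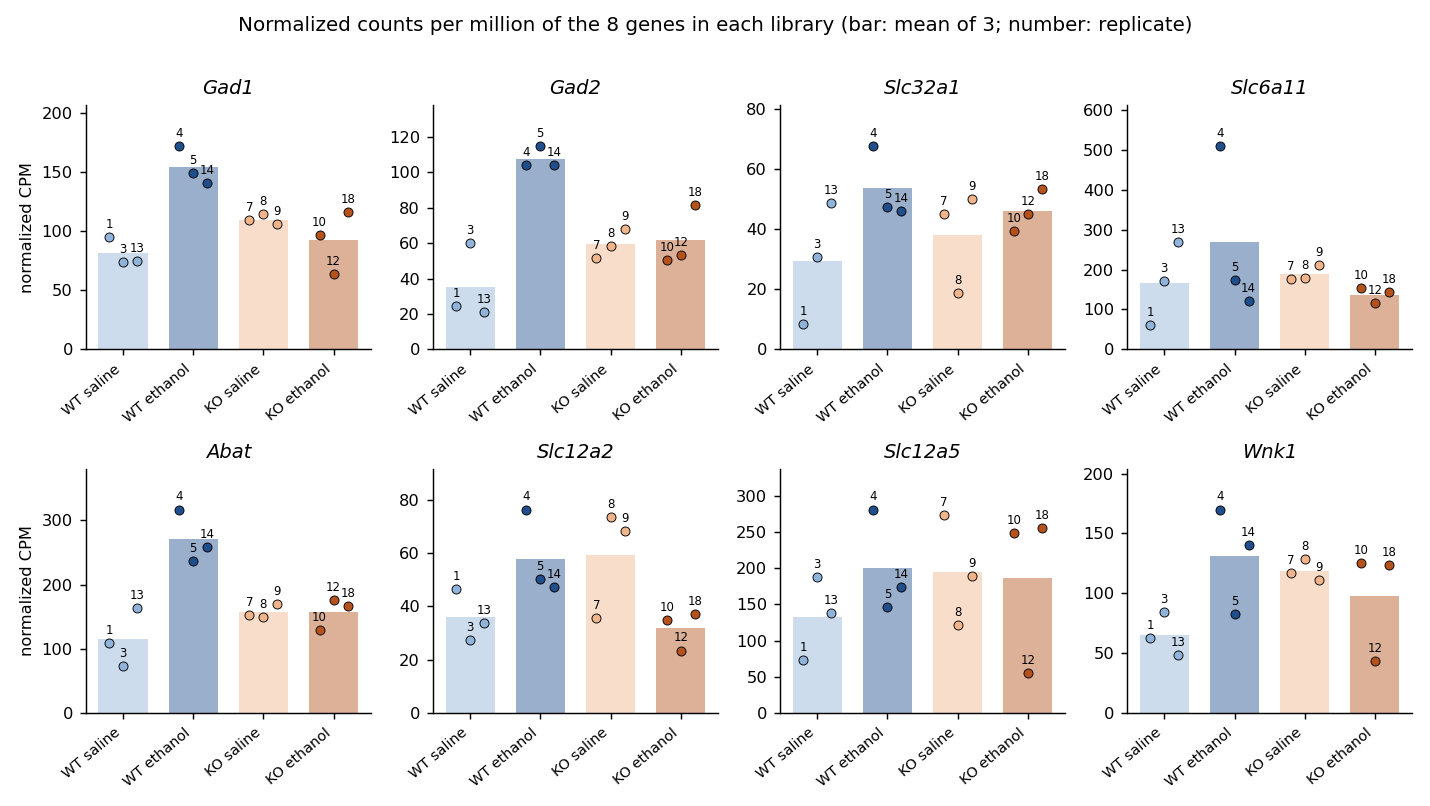
Normalized CPM (vertical axes) of the 8 genes, 1 panel per gene, in the 4 groups, with bars for the mean of 3 libraries and points for single libraries labelled by library number. In Gad1, Gad2 and Abat the 3 WT ethanol points lie above the points of every other group, whereas in Slc12a5 all groups overlap.

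In bulk cortex, more cells of a type and more RNA per cell cannot be told apart, nor can a different dissected area. Summed levels of 18 cortical interneuron markers were 517 to 791 normalized CPM in WT saline and 818 to 1370 in WT ethanol libraries. Of the 1370 in WT ethanol 4, 870 were Calb2, which thalamic neurons also express. Of the 18 markers, 3 were higher at an unadjusted p under 0.05 and none was lower (9.99% of all genes were higher and 8.36% lower), with a median log2 fold change of 0.09. The 3 included Dlx6, a transcription factor of GABAergic neurons (0.686 ± 0.750 against 4.97 ± 1.72 normalized CPM, SD, n = 3), and Calb2, while Sst and Reln had log2 fold changes of -0.12 and 0.13. Nxph1 and Erbb4 had log2 fold changes of 0.34 and 0.46, with overlapping groups. Lhx6, which marks interneurons from the medial ganglionic eminence, is named here outside the rule for genes of the lists. It was at 8.82, 61.7 and 14.5 in WT saline and at 8.55, 36.1 and 24.2 normalized CPM in WT ethanol libraries, with no separation of the groups. The striatal markers, of which 8 of 11 were higher at an unadjusted p under 0.05 (median 2.46), and the thalamic markers, of which 3 of 6 tested were higher (median 1.5), had larger medians than the interneuron markers. Their part in the levels of Gad1 and Gad2 was not tested.

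Transcript length also moved with the comparison. The longest transcript was 2797 bases for Slc32a1, 3355 for Gad1, 4132 for Slc6a11, 4636 for Abat, 5744 for Gad2, 6028 for Slc12a5, 6520 for Slc12a2 and 11330 for Wnk1. Of the 8244 genes longer than 2797 bases, 14.6% were higher in WT ethanol at an unadjusted p under 0.05 and 2.34% were lower, with a median log2 fold change of 0.35. When the trend of each library with length was removed, the log2 fold changes of Gad2, Abat and Gad1 were 1.01, 0.66 and 0.55, that of Wnk1 was 0.08, and those of Slc12a2 and Slc12a5 were -0.12 each. Gad2 kept an unadjusted p under 0.05 (0.0293, edgeR adjusted p = 0.371).

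**Figure D3:**
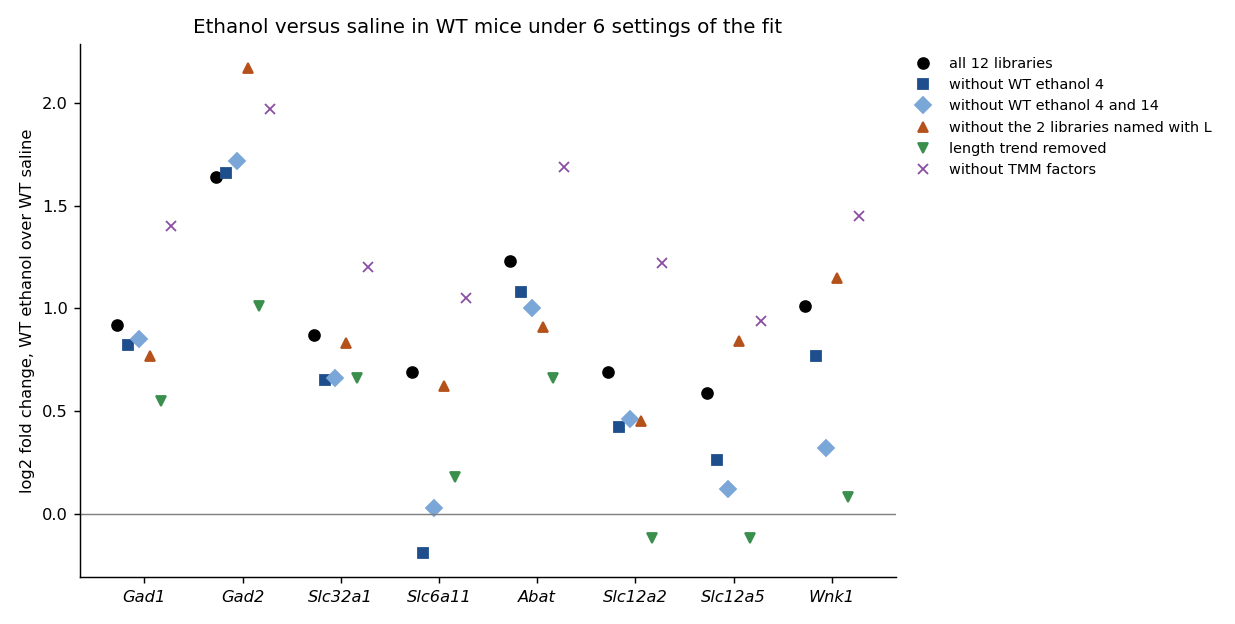
The log2 fold change of ethanol over saline in WT mice (vertical axis) for the 8 genes (horizontal axis) under 6 settings of the fit, 1 symbol per setting, without error bars. Gad2 lies between 1.01 and 2.17 in all 6, while Slc6a11, Slc12a2 and Slc12a5 fall below 0 in 1 setting each.

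The same treatment was compared in KO mice, where p53 is absent. The log2 fold changes of the 8 genes lay on both sides of 0, with a median of -0.14 (all genes 0.01), 2 above 0 and 6 below. Only Slc12a2 had an unadjusted p under 0.05, lower after ethanol as were 2.01% of all genes, and no gene of the 8, and 0.0% of all genes, had an adjusted p under 0.05. Of 11 striatal markers, 4 were higher in KO mice given ethanol at an unadjusted p under 0.05 (median 0.89). This held for 1.13% of the 14581 genes with a known transcript length. Of 18 interneuron markers 2 were higher and 1 lower (median 0.07). Their part in the levels of the 8 genes was not tested.

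Gad1 was at 109, 114 and 106 normalized CPM in KO saline 7, 8 and 9 and at 96.8, 63.5 and 116 in KO ethanol 10, 12 and 18. The spread after ethanol included the saline values, and the log2 fold change was -0.23 (SE 0.31). Gad2 was at 51.8, 58.2 and 68.0 in KO saline and at 50.6, 53.5 and 81.6 normalized CPM in KO ethanol libraries, with a log2 fold change of 0.07 (SE 0.39). The highest Gad2 and Gad1 in the ethanol group were those of KO ethanol 18, the library of that group with the highest striatal marker sum. Among WT ethanol libraries, the one with the highest such sum, WT ethanol 14 (1270), had the lowest Gad1 (141). Its Gad2 was 104, as in WT ethanol 4, against 115 in WT ethanol 5. The relation of these levels to the striatal sums was not tested. Abat was at 152, 149 and 169 in KO saline and at 129, 176 and 166 normalized CPM in KO ethanol libraries, and both means were 157. Slc32a1 ran from 18.9 to 50.2 in KO saline and from 39.4 to 53.4 in KO ethanol libraries (log2 fold change 0.27, SE 0.52).

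Slc6a11 was the gene whose KO ethanol libraries (115 to 153 normalized CPM) were all below the KO saline libraries (177 to 211), as were 6.87% of all genes. Its log2 fold change was -0.46 (SE 0.54, unadjusted p = 0.416, edgeR adjusted p = 0.999), so a difference in the level of this astrocyte transporter did not pass the test. Slc12a2 was at 35.6, 73.6 and 68.3 in KO saline 7, 8 and 9 and at 35.0, 23.4 and 37.2 normalized CPM in KO ethanol 10, 12 and 18. KO saline 7 lay among the ethanol libraries and the other 2 saline libraries were about double. Ethanol over saline was -0.86 on the log2 scale (SE 0.38, unadjusted p = 0.0391, edgeR adjusted p = 0.999). Without KO ethanol 12, where the value rests on 14 counts, it was -0.72 (unadjusted p = 0.101).

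Slc12a5 and Wnk1 were low in KO ethanol 12 alone. Slc12a5 was at 248 and 256 normalized CPM in KO ethanol 10 and 18 but at 55.2 in KO ethanol 12, and Wnk1 was at 125 and 124 but at 43.5 there. The KO saline libraries were at 274, 122 and 189 for Slc12a5 and at 117, 129 and 111 for Wnk1. The log2 fold changes were -0.05 (SE 0.53) and -0.27 (SE 0.41), and 0.37 and 0.06 without KO ethanol 12.

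KO mice were compared with WT mice under saline to ask what absence of p53 alone goes with. All 8 log2 fold changes were above 0, with a median of 0.49 (all genes 0.04), but none had an unadjusted p under 0.05, where 9.14% of all genes were higher, and 3 (Wnk1, Gad2 and Slc12a2) had an adjusted p under 0.30, as did 25.8% of all genes. None had an adjusted p under 0.05, a level reached by 0.0543% of all genes. Gad1 (109 ± 3.90 against 81.3 ± 11.9 normalized CPM, SD, n = 3) and Wnk1 (119 ± 9.18 against 65.3 ± 17.9) had all KO libraries above all WT libraries, as did 12.9% of all genes.

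The largest of these log2 fold changes were those of Wnk1 (0.88, SE 0.41, unadjusted p = 0.0525, edgeR adjusted p = 0.259), Gad2 (0.78, SE 0.40, unadjusted p = 0.0701, edgeR adjusted p = 0.287) and Slc12a2 (0.72, SE 0.38, unadjusted p = 0.0753, edgeR adjusted p = 0.297). The other 5 were between 0.18 for Slc6a11 and 0.55 for Slc12a5. Without the libraries named with L, which leaves 2 WT saline libraries, Gad2 passed the test at 1.32 (adjusted p = 0.0112) and so did Wnk1 at 1.03 (adjusted p = 0.0418). Such fits also passed many other genes. With WT ethanol 4 left out as well, 4233 genes had an adjusted p under 0.05, against 8 in the main fit. That was the highest number over the alternatives. The share of all genes in the fit without only the libraries named with L is not reported here. The calls of Gad2 and Wnk1 in it are therefore no result about these genes. Of the genes longer than 2797 bases, 13.9% were higher in KO mice at an unadjusted p under 0.05 (median 0.36), and with the length trend removed Wnk1 was at -0.06 and Slc12a2 at -0.13. The WT saline libraries are shared with the comparison of ethanol in WT mice, so the values above 0 in both are not independent.

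After ethanol, KO and WT mice were compared in the same way. All 8 genes had lower means in KO mice, with a median log2 fold change of -0.76 (all genes -0.03), and in Gad1, Gad2, Abat and Slc12a2 all 3 KO libraries were below all 3 WT libraries, as were 8.69% of all genes. Gad1 (-0.72, SE 0.31, unadjusted p = 0.0347), Abat (-0.79, SE 0.35, unadjusted p = 0.0389) and Slc12a2 (-0.83, SE 0.38, unadjusted p = 0.0456) were the 3 lower at an unadjusted p under 0.05, as were 2.26% of all genes. The edgeR adjusted p was 0.982 or more for all 8 genes, and 0.0% of all genes had an adjusted p under 0.05. Gad2 had a log2 fold change of -0.79 (SE 0.40, unadjusted p = 0.0649) and Slc6a11 of -0.96 (SE 0.55, unadjusted p = 0.0997). Slc12a5 (-0.09) and Slc32a1 (-0.22) were nearest to 0. Of the marker lists, 4 of 6 thalamic markers tested (median -1.68), 3 of 18 interneuron markers (median -0.04) and 1 of 11 striatal markers (median -0.99) were also lower at an unadjusted p under 0.05. None of these markers was higher at that level. Their part in the levels of the 8 genes was not tested. Without WT ethanol 4, none of the 8 had an unadjusted p under 0.05. The number of all genes at that level was 477 in the main fit and ran from 264 to 950 over the alternatives. The share without WT ethanol 4 is not reported here.

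The Genotype x Treatment interaction asks whether the ethanol difference differed between KO and WT mice. All 8 estimates were below 0, that is, the log2 fold change after ethanol was smaller in KO than in WT mice, with a median of -1.19 (all genes -0.11). Of the 8 genes, 5 were lower at an unadjusted p under 0.05, as were 7.67% of all genes. These were Gad2 (-1.57, SE 0.56, edgeR adjusted p = 0.258), Slc12a2 (-1.55, SE 0.53, adjusted p = 0.252), Wnk1 (-1.28, SE 0.58, adjusted p = 0.322), Abat (-1.23, SE 0.49, adjusted p = 0.281) and Gad1 (-1.15, SE 0.44, adjusted p = 0.267). Their unadjusted p-values ran from 0.0113 for Slc12a2 to 0.0457 for Wnk1. None of the 8, and 0.0% of all genes, had an adjusted p under 0.05, while 4 of the 8 and 11.1% of all genes were under 0.30.

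The 5 genes reached their estimates in different ways. Gad1, Gad2 and Abat were above 0 in WT mice and near 0 in KO mice. Slc12a2 differed in opposite directions, 0.69 in WT and -0.86 in KO mice. Slc32a1 (-0.59), Slc6a11 (-1.14) and Slc12a5 (-0.64) had unadjusted p-values from 0.159 to 0.434. Without WT ethanol 4, Gad2 (-1.57, unadjusted p = 0.0214) and Slc12a2 (-1.26, unadjusted p = 0.0405) were the 2 genes left with an unadjusted p under 0.05 in edgeR. With the length trend removed none was left, and the estimates were -0.56 for Gad1, -0.4 for Gad2, -0.24 for Slc12a2, -0.1 for Abat and 0.08 for Wnk1. Of the genes longer than 2797 bases, 12.3% had a negative interaction at an unadjusted p under 0.05, with a median of -0.56.

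**Figure D4:**
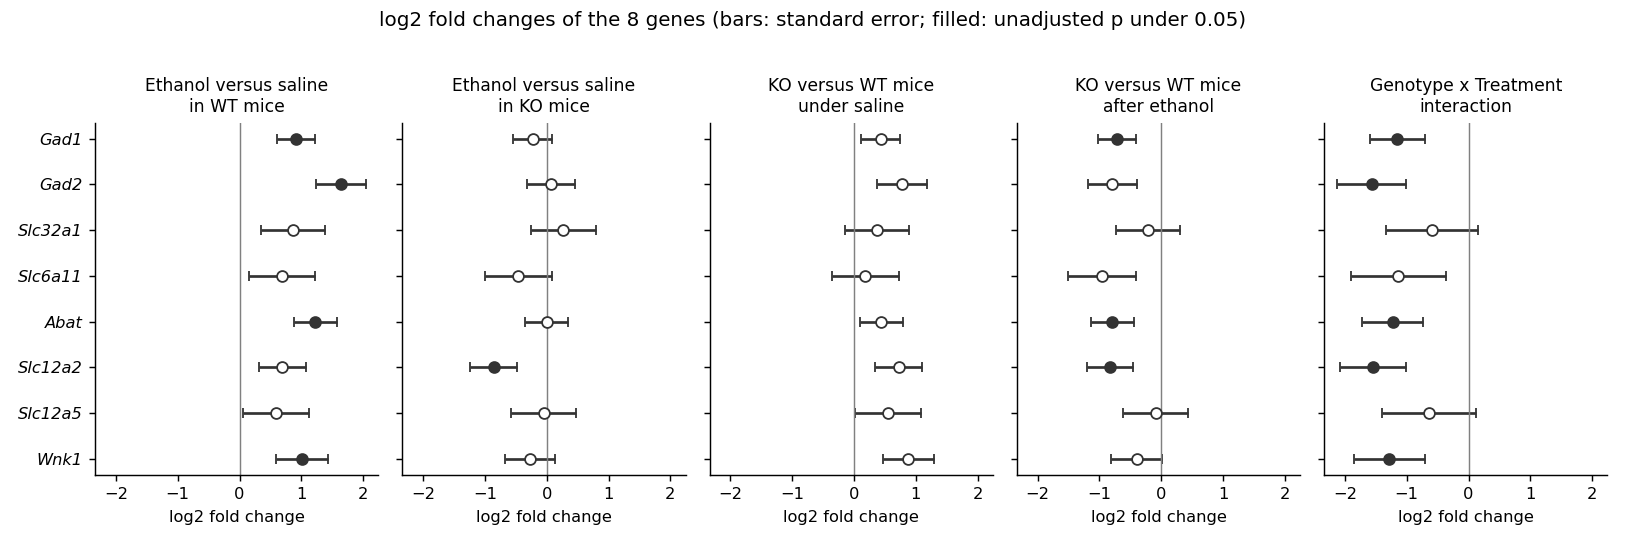
The log2 fold changes (horizontal axes) of the 8 genes in 5 comparisons, 1 panel each, with bars for the standard error and filled points for an unadjusted p under 0.05. Points lie right of 0 for all 8 genes in ethanol versus saline in WT mice and left of 0 for all 8 in the interaction, and no gene passed an adjusted p of 0.05.

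The division of the count among transcripts was examined because 3 of the 8 genes have more than 1 transcript in the tables. Gad1 was almost all NM_008077 (99.3% of its count). Abat was divided between NM_172961 (69.1% over all libraries) and NM_001170978 (30.9%). The share of NM_001170978 was 64.3%, 56.7% and 32.7% in WT saline 1, 3 and 13, 25.2% to 31.1% across WT ethanol libraries, 31.1% to 34.6% across KO saline libraries and 29.6%, 48.1% and 29.6% in KO ethanol 10, 12 and 18. It was thus high in 3 libraries, 2 of them the libraries named with L. NM_172961 had a log2 fold change of 1.64 in WT mice given ethanol (SE 0.45, unadjusted p = 0.00269, edgeR adjusted p = 0.132, over transcripts) and NM_001170978 one of 0.43 (SE 0.36, unadjusted p = 0.260).

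Wnk1 had 5 transcripts. NM_198703 held 38.0% of its count and NM_001185020 held 33.2%. The share of NM_198703 was 1.6%, 2.3% and 30.4% in WT saline 1, 3 and 13, 50.5%, 28.5% and 34.7% in WT ethanol 4, 5 and 14, 25.1%, 52.2% and 53.5% in KO saline 7, 8 and 9 and 22.7%, 2.0% and 33.7% in KO ethanol 10, 12 and 18. It was near 0 in the same 3 libraries in which the Abat share was high. Its log2 fold change in WT mice given ethanol was 3.0 (SE 0.95, unadjusted p = 0.00693, edgeR adjusted p = 0.165), in KO against WT mice under saline 2.98 and in the interaction -4.01, while NM_001185020 was at 0.04 in WT mice given ethanol (SE 0.47) and NM_001185021 (13.3% of the count) at 0.37. NM_198703 was thus nearly absent from WT saline 1 and 3. A lesser transcript, NM_001199084 (5.56% of the count, named after its values were seen), had larger differences of 3.93, 3.22 and -5.12 in the same 3 comparisons (edgeR adjusted p = 0.115, 0.151 and 0.21), with shares of 2.3%, 0.1% and 0.6% in WT saline 1, 3 and 13 and of 10.4%, 12.6% and 1.8% in WT ethanol 4, 5 and 14. How the authors' quantification divides shared reads was not tested.

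**Figure D5:**
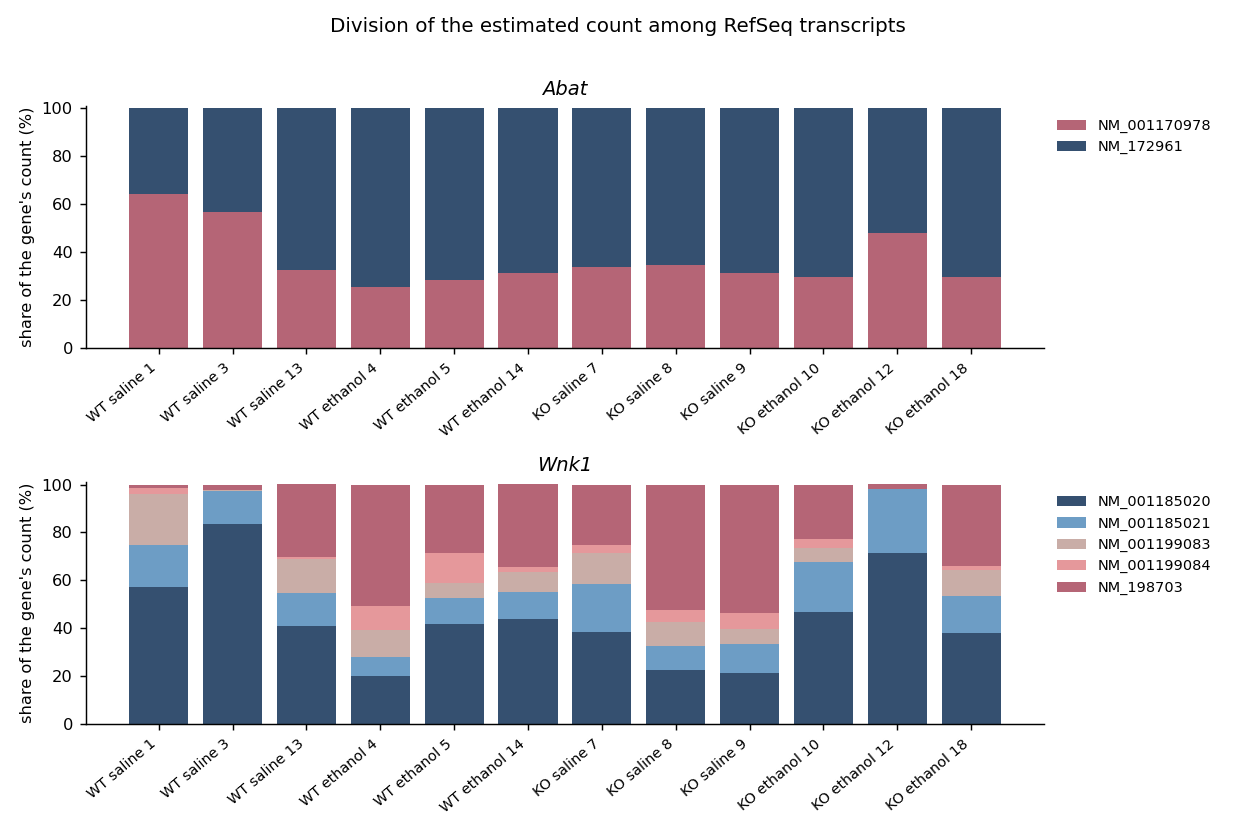
Share of the estimated count of Abat (upper panel) and Wnk1 (lower panel) given to each RefSeq transcript, in percent (vertical axes), in each of the 12 libraries (horizontal axes). NM_001170978 of Abat is highest and NM_198703 of Wnk1 lowest in WT saline 1, WT saline 3 and KO ethanol 12.

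Ratios between genes of 1 library, per length, do not depend on the scaling of libraries. Gad2 over Gad1 was 0.149, 0.475 and 0.165 in WT saline 1, 3 and 13 and 0.353, 0.452 and 0.434 in WT ethanol 4, 5 and 14. The ratio was low in the 2 WT saline libraries that are not named with L, and WT saline 3 was above all ethanol libraries. The difference of the mean log2 ratios was 0.85 (exact permutation p = 0.4, two-sided, adjusted p = 1.0 over the 16 ratio tests). Slc12a2 over Slc12a5, the NKCC1 to KCC2 ratio, averaged 0.315 ± 0.238 in WT mice given saline and 0.273 ± 0.0391 in those given ethanol, and 0.337 ± 0.219 and 0.219 ± 0.150 in the corresponding KO groups (SD, n = 3). It was below 1 in all 12 libraries, so Slc12a5 was the more abundant of the pair at P7. Its 4 comparisons had exact permutation p-values from 0.4 to 1.0. The smallest p that 3 against 3 libraries allow is 0.1, and 1 of the 16 tests reached it, Slc32a1 over Gad1 in KO (0.630 ± 0.195) against WT mice (0.416 ± 0.0492) after ethanol, with an adjusted p of 1.0 in the exact test.

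Over the 12 libraries, the log2 levels of Slc12a5 and Wnk1 (Pearson r = 0.78), Gad1 and Wnk1 (0.77), Gad1 and Slc12a2 (0.76), Gad1 and Gad2 (0.69) and Gad1 and Abat (0.69) were most alike among the 28 pairs, and Slc32a1 and Slc12a2 least (-0.06). These are descriptions, since the libraries share groups and differ in depth and tissue. Of 10056 genes with a mean of at least 10 normalized CPM, those most like the mean of Gad1, Gad2 and Slc32a1 were Rgs8 (r = 0.964), Adcy5 (0.95), Terf2ip (0.944), Dnajb12 (0.933) and Cacng4 (0.928). Those most like Slc12a5 were Sh2d5 (0.973), Dock6 (0.968), Fbrs (0.966), Tulp3 (0.963) and Sgsm1 (0.962), and those most like Slc12a2 were Ranbp2 (0.941), Crim1 (0.936), Spag9 (0.929), Kitl (0.928) and Mib1 (0.928).

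Other genes of GABA handling were counted from a list of 22, which holds the other plasma membrane GABA transporters, enzymes of the GABA shunt and the glutamine and glutamate carriers that supply the precursor. In WT mice given ethanol none was higher and 2 were lower at an unadjusted p under 0.05 (8.36% of all genes were lower), with a median log2 fold change of 0.0. The 2 were Slc6a12 (-2.40, SE 0.98, unadjusted p = 0.0283), a betaine and GABA transporter, and Slc38a5 (-1.65, SE 0.62, unadjusted p = 0.0184), a glutamine transporter. In KO against WT mice under saline 3 were lower, as were 10.5% of all genes: Slc6a12 (-4.15), Slc38a5 (-1.67) and Slc6a13 (-2.60), which encodes GAT2, a transporter of the meninges and blood vessels. The 3 genes varied widely in WT saline libraries, at 4.28 ± 5.77, 30.1 ± 16.6 and 23.2 ± 25.9 normalized CPM (SD, n = 3). In KO mice given ethanol none of the 22 was at that level, where 2.01% of all genes were lower. After ethanol 1 was lower in KO than in WT mice (Maob, -0.84, unadjusted p = 0.0494), as were 2.26% of all genes. A positive interaction was found in 2, as in 7.46% of the 14581 genes with a known transcript length. The most abundant members of the list, Slc1a2 (astrocyte glutamate uptake) and Glul (glutamine synthesis), had log2 fold changes of 0.46 and 0.00 in WT mice given ethanol.

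Other genes of chloride transport and WNK signalling were counted from a list of 24, of which 22 were tested. In WT mice given ethanol 1 was higher and none was lower at an unadjusted p under 0.05, against 9.99% and 8.36% of all genes (median 0.08). It was Klhl3, an adaptor by which WNK kinases are marked for degradation, at 1.14 ± 0.523 normalized CPM after saline and 6.62 ± 0.874 after ethanol for WT mice, and at 6.58 ± 2.51 after saline and 2.70 ± 2.37 after ethanol for KO mice (SD, n = 3). Its log2 fold change was 2.57 in WT mice given ethanol (SE 0.66, unadjusted p = 0.00146, edgeR adjusted p = 0.150) and -3.52 in the interaction (unadjusted p = 0.00128, edgeR adjusted p = 0.250). The group means of this low gene ran in the same order as those of Gad1, from WT saline over KO ethanol and KO saline to WT ethanol. In KO mice given ethanol 1 of 22 was lower, where 2.01% of all genes were. It was Wnk3 (-1.45, SE 0.46, unadjusted p = 0.00683, edgeR adjusted p = 0.999), a neuronal WNK kinase that also had a negative interaction (-1.85).

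Under saline, 4 of the 22 were higher in KO than in WT mice, where 9.14% of all genes were, among them Oxsr1 (1.31, SE 0.52, unadjusted p = 0.0236), a kinase that WNK1 phosphorylates, and Klhl3 (2.56, unadjusted p = 0.0015). After ethanol none of the 22 differed between KO and WT mice at that level in edgeR, where 2.26% of all genes were lower in KO mice. The interaction was negative in 2, Klhl3 and Wnk3, as in 7.67% of all genes. No gene of either list had an adjusted p under 0.05 in any of the 5 comparisons. The abundant Cab39, a partner of the kinases below WNK1, had a log2 fold change of -0.01 in WT mice given ethanol.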

How the data were processed

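Stranded RNA-Seq of somatosensory cortex was available for 12 libraries in 4 groups of 3, with genotype and treatment from the labels. Per the study's methods, reads were aligned to mm10 with Bowtie2 and quantified on RefSeq transcripts in Partek. The deposited estimated counts are unscaled and include fractions. The authors also deposited RPKM values, of which 99.7% of 20504 ranks were equal across libraries within 0.1%, as quantile normalization would leave them. Dissection by laser or hole punch is not given per library. Separate mice per library are not stated in the labels, so p-values measure the spread between these libraries.

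Counts were summed per symbol, rounded and fitted in edgeR 4.0.16 (R 4.3.3, limma 3.58.1) with its default filter on low counts, TMM factors and a quasi-likelihood model of 4 group means, with 5 two-sided contrasts and Benjamini-Hochberg adjustment over 14739 genes. Ratios were compared by exact permutation in scipy 1.17.1, with tables made in Python 3.11.15 (numpy 2.4.6, pandas 2.3.3) and plots in matplotlib 3.10.9. Alternatives were DESeq2 1.42.0, library size alone, other count filters, limma on log2(RPKM + 1) or log2(RPKM + 0.1), transcripts, the letter of the library name as a covariate, libraries left out, only the groups compared, and each library's trend with transcript length removed (spline with 5 degrees of freedom, lengths for 23924 of 24452 symbols). All 8 genes are named, and from each other list up to 4 genes by smallest unadjusted p and the 2 most abundant, of which some are not reported here. The 8 genes and the lists were chosen with earlier results of these data known.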

Additional observations from a re-analysis of the deposited data

Results flagged for a closer look

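Ethanol against saline differed between KO and WT mice, by the interaction test at an unadjusted p under 0.05, in 5 of the 8 genes, all with a negative estimate, as had 7.67% of all genes. The interaction estimates (log2) were -1.15 for Gad1, -1.57 for Gad2, -1.23 for Abat, -1.55 for Slc12a2 and -1.28 for Wnk1. The edgeR adjusted p was 0.252 to 0.322, so none passed after correction. Of the 5 genes, 2 (Gad2 and Slc12a2) kept an unadjusted p under 0.05 without WT ethanol 4, and 0 with the trend with transcript length removed. The number of all genes at that level moved as well, from 829 to 3538 over the alternatives. The WT ethanol group includes the library with high thalamic markers (WT ethanol 4) and the one with the highest striatal markers (WT ethanol 14). Their part in these values was not tested beyond the fits without them. WT ethanol 5, which stays in those fits, had a striatal marker sum of 603 normalized CPM, against 165 to 240 in WT saline libraries.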

How the results depend on the processing

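No paired analysis was possible because the groups share no replicate number. Fits without WT ethanol 4 and 14, and without WT ethanol 4 and the 2 libraries named with L, were added after seeing the data. The first leaves WT ethanol 5 alone in its group, which is assumed to vary like the other groups. Fewer calls follow from its construction, so only its fold changes are given. The interaction could not be fitted to only the groups compared. Among single log2 values of the 8 genes, 38 changed sign and 12 came to pass an adjusted p of 0.05 under an alternative. Most counts of the 8 genes below come without the share of all genes in the same setting. The totals over all genes moved as well, so a change in a count is no result about these genes.

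For ethanol in WT mice, the number of the 8 genes at an adjusted p under 0.05 (0) was 2 with DESeq2 and 3 without the libraries named with L, when 3220 of all genes were. It was 1 without WT ethanol 4 and those libraries, and 0 to 1 with single libraries left out (1 without WT saline 3). The number at an unadjusted p under 0.05 (4) was 1 with the length trend removed. Slc12a2 and Slc12a5 were -0.12 each with the length trend removed, and Slc6a11 was -0.20 without WT ethanol 4 and the libraries named with L and -0.19 (without WT ethanol 4) to 1.22 (without WT saline 13) with single libraries left out. Over 25 alternatives, Gad2 was between 1.01 and 2.25. Its unadjusted p was under 0.05 in each of them that keeps more than 1 WT ethanol library.

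For ethanol in KO mice, the number at an unadjusted p under 0.05 (1) was 0 with DESeq2, without TMM factors, with at least 10 counts in every library and in limma on log2(RPKM + 0.1). It was also 0 with the letter as a covariate, without the libraries named with L, without WT ethanol 4 and those libraries, and with the length trend removed. With single libraries left out it was 0 to 1. Slc12a5 was 0.02 without TMM factors, 0.01 with at least 10 counts, 0.35 without the libraries named with L, 0.23 with the length trend removed, 0.38 without WT ethanol 4 and those libraries, and -0.33 to 0.37 with single libraries left out. In the same order where its sign changed, Wnk1 was 0.04 without the libraries named with L, 0.16, 0.08 and -0.45 to 0.06. Gad2 was -0.08 with the letter as a covariate and -0.17 to 0.23 with single libraries left out, and Slc32a1 -0.05 to 0.53.

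For KO against WT mice under saline, the number at an unadjusted p under 0.05 (0) was 5 without TMM factors, 3 with at least 10 counts in every library, 2 in limma on log2(RPKM + 1), 1 per transcript, 1 with the letter as a covariate, 2 without the libraries named with L, 1 with only the groups compared, 2 without WT ethanol 4 and those libraries, and 0 to 2 with single libraries left out (2 without WT saline 3). At an adjusted p under 0.05 it was 2 without the libraries named with L, with or without WT ethanol 4, and 0 to 1 with single libraries left out. Over all genes, the number at an unadjusted p under 0.05 ran from 1610 to 6195. Without WT ethanol 4 and the libraries named with L, 4233 genes had an adjusted p under 0.05. With the length trend removed Slc6a11 was -0.26, Abat -0.14, Slc12a2 -0.13, Slc12a5 -0.13 and Wnk1 -0.06. With single libraries left out Slc32a1 was -0.09 to 1.0 and Slc6a11 -0.23 to 0.71.

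For KO against WT mice after ethanol, the number at an unadjusted p under 0.05 (3) was 1 without TMM factors and 0 with at least 1 count in any library. It was 1 with the letter as a covariate and 0 with the length trend removed. With single libraries left out it was 0 (without WT ethanol 4) to 4 (without WT saline 3). Slc12a5 was 0.33 without the libraries named with L, 0.22 with the length trend removed, 0.39 without WT ethanol 4 and 14, 0.67 without WT ethanol 4 and the libraries named with L, and -0.33 to 0.33 with single libraries left out. Slc32a1 was 0.01 and Wnk1 0.02 with the length trend removed, Wnk1 was 0.30 and 0.17 in the added fits, and Slc6a11 was 0.02 in the second of them.

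For the interaction, the number at an unadjusted p under 0.05 (5) was 2 with the letter as a covariate and 0 with the length trend removed. It was 1 without WT ethanol 4 and the libraries named with L, and 2 (without WT ethanol 4) to 5 with single libraries left out. With the length trend removed Slc12a5 was 0.35 and Wnk1 0.08. The causes were not tested.

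Over all genes, the number at an unadjusted p under 0.05 was 2704 (625 to 5582 over the alternatives) for ethanol in WT mice, 465 (48 to 1141) in KO mice, 2890 (1610 to 6195) for genotype under saline, 477 (264 to 950) after ethanol and 2237 (829 to 3538) for the interaction. At an adjusted p under 0.05 it was 11 (0 to 3220), 0 (0 to 2), 8 (0 to 4233), 0 (0 to 3) and 0 (0 to 255). Depth limits KO ethanol 12 most, where Slc12a2 had 14 counts and Wnk1 26.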

Other observations

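Glial, vascular and excitatory neuron markers were also counted beside the 8 genes. In WT mice given ethanol, 3 of 8 microglia markers were lower at an unadjusted p under 0.05 (8.36% of all genes, median log2 fold change of the markers -0.7), and under saline 4 of 8 were lower in KO than in WT mice (10.5% of all genes, median of the markers -0.77). The summed level of microglia markers was 115 to 588 normalized CPM in WT saline and 155 to 266 in WT ethanol libraries, so the groups overlapped. Of 10 astrocyte markers, the cells that hold most Slc6a11, 1 was higher in WT mice given ethanol (9.99% of all genes, median 0.29) and 2 were lower in KO than in WT mice after ethanol (2.26% of all genes, median -0.29). The summed level of astrocyte markers overlapped in all 4 groups, at 591 to 1660 in WT saline and 935 to 1830 in WT ethanol libraries. Of 13 excitatory neuron markers 1 was higher and 1 lower in WT mice given ethanol (9.99% and 8.36% of all genes, median -0.53), and their sum was lowest in WT ethanol 4 (1100). Of 10 oligodendrocyte lineage markers none was called in WT mice given ethanol in edgeR (median 0.49). Choroid plexus markers, which include the abundant Ttr, summed to 5030 in WT ethanol 4 and had no counts in KO ethanol 12, the library with the lowest total, with 2 of 6 higher in WT mice given ethanol (median 2.48), and 1 of 8 endothelial and mural markers was higher (median 0.6), where 9.99% of all genes were. None of these lists had a gene with an adjusted p under 0.05.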
